A study of Mus musculus with 8 samples.

Results

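The macrophage genes followed here, 10 in number, were read in the proximal large intestine of ApoE knockout mice, born germ-free and later colonised. They were chosen by symbol, with earlier results of these data known, and all 10 are among the 17041 genes of the deposited table. They are Csf1r, Cx3cr1, Cd68, Lyz2, Mrc1, Cd163, C1qa, C1qb, C1qc and Fcgr3. Every mouse, in both groups, carried the ApoE knockout, received a single oral gavage at 8 weeks of age and was dissected at 26 weeks. The first group (3 libraries) received a core community that makes no butyrate. The second (5 libraries) received the same core community with Roseburia intestinalis added, a bacterium that makes butyrate, and its libraries are called Roseburia libraries below. The comparison asks how the butyrate producer alters expression in the gut wall, here in its macrophage genes. Libraries were made from whole frozen tissue, so fewer macrophages and less RNA in each of them cannot be told apart. The sources used here do not give diet, sex, cage or the number of mice behind a library. Every difference below is the Roseburia group (core plus R. intestinalis) minus core.

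Macrophages of the gut wall are replaced in large part from blood monocytes, and they depend on signalling through the receptor encoded by Csf1r. They lie under the epithelium, around vessels and along the nerves of the muscle layer, where they clear dying cells and take up bacteria without strong inflammation. The genes of this set cover their growth factor and chemokine receptors, scavenger receptors, the 3 chains of complement C1q, an Fc receptor for IgG and a lysozyme.

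None of the 10 genes passed the test between the communities. With limma over 13020 genes, 0 of the 10 had a Benjamini-Hochberg adjusted p below 0.05, as did 0.00% of all genes tested. At an unadjusted p below 0.05 it was again 0 of the 10, against 8.13% of all genes tested (3.69% lower, 4.44% higher). The ranges of the groups overlapped for all 10, while they did not overlap for 5.84% of all genes tested (3.31% lower, 2.53% higher). The authors' deposited table called 0 of the 10 at a posterior probability of at least 0.95, against 0.481% of its genes, and gave the 10 genes probabilities between 0 and 0.04. The fitted differences were below 0 for 9 of the 10 genes, where 50.4% of all tested genes were below 0, with a median of −0.25 on the log2 scale against −0.0035 over all genes. In Roseburia replicate 1, 9 of the 10 genes had their lowest value of all 8 libraries, while 25.1% of all tested genes had theirs there. Without this library 3 of the 10 differences were below 0 (50.4% of all genes) and their median was 0.037. Without core replicate 2 it was 6 of the 10 (50.8% of all genes), with a median of −0.086.

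**Figure D1:**
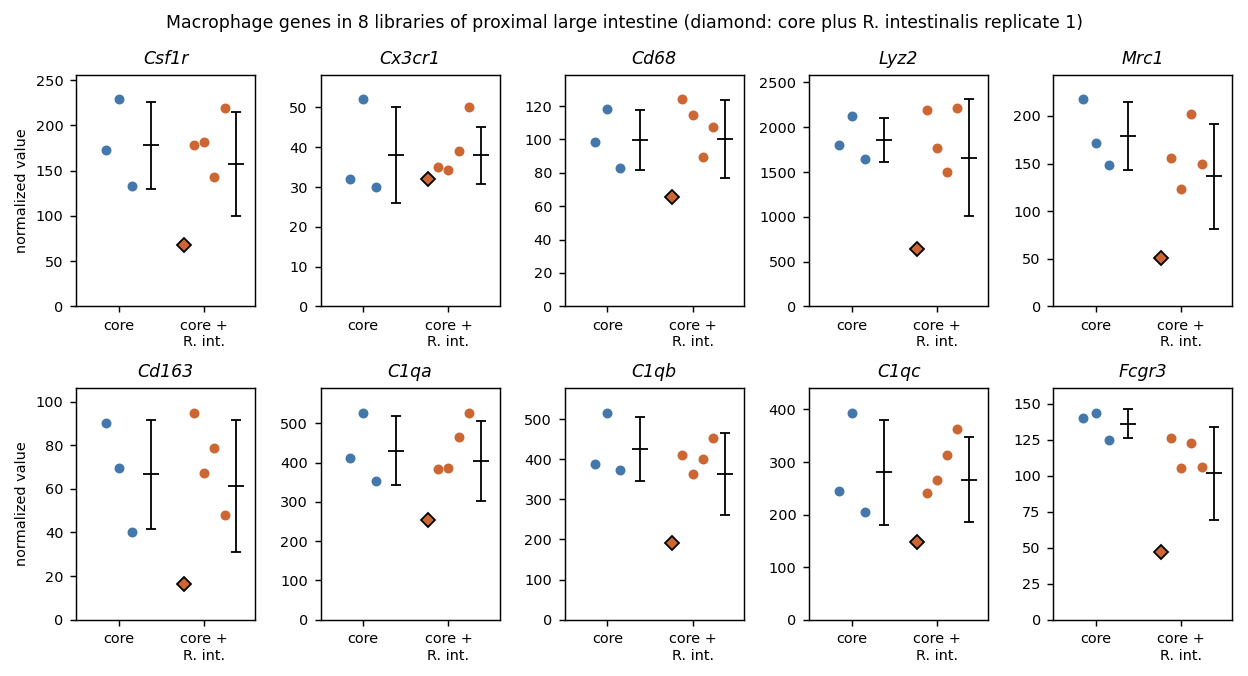
Each panel plots the normalized value of a macrophage gene in the 3 core and 5 core plus R. intestinalis libraries as points, the group mean as a line and the SD as a bar. The diamond is core plus R. intestinalis replicate 1, the lowest point in 9 of the 10 panels, and the groups overlap in every panel.

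Upstream sequences are shown first for C1qb and C1qc, neighbours that varied together, and for Mrc1 and Fcgr3, which had the most negative differences. They are RefSeq promoters of build GRCm38.p6, cut to the 250 bases before the start, 5′ to 3′, and are not from the build named by the authors. Promoters were found for 8 of the 10 genes, and C1qa and Csf1r were not matched. Capitals mark the letters GAGGAA on either strand, the core of sites bound by PU.1, the transcription factor that macrophages require.
C1qb, chr4:136886201-136886450 (minus strand): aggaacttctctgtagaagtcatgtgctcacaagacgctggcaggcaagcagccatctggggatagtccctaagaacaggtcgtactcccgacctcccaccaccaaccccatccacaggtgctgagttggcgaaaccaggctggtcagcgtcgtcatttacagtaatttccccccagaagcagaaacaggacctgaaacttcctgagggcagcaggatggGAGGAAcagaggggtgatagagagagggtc
C1qc, chr4:136892915-136893164 (minus strand): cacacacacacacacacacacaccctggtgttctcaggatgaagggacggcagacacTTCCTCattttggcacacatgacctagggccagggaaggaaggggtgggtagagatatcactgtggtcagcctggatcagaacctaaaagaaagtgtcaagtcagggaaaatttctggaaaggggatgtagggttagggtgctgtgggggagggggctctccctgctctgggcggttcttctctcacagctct
Mrc1, chr2:14229164-14229413 (plus strand): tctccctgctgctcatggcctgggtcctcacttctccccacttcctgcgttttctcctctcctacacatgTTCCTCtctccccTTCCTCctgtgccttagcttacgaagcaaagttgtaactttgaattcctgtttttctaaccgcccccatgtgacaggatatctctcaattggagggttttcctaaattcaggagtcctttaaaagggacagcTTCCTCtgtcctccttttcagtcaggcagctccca
Fcgr3, chr1:171059404-171059653 (minus strand): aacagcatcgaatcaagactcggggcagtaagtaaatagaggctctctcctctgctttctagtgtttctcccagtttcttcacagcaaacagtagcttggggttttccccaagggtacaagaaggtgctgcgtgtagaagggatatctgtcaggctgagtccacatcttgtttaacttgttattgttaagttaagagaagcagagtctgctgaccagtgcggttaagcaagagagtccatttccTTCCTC

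In the window from 250 bases before to 50 after the start, 5 of the 8 matched promoters held GAGGAA (both strands), against 28.3% of all 32851 promoters in the RefSeq table. The letters TGCTGA (both strands), part of the element bound by MAF factors, stood in 3 of the 8, namely C1qb, Fcgr3 and Lyz2, against 19.5% of all promoters. Such a match is a stretch of letters and was not tested as a binding site.

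Lyz2 and Lyz1 are shown for another reason. Lyz2 is the lysozyme of macrophages and other myeloid cells, Lyz1 is best known from Paneth cells of the small intestine, and the genes are neighbours. Over the 100 bases before the start the pair differed at 8 ungapped positions, in capitals here.
Lyz2, chr10:117282273-117282372 (minus strand): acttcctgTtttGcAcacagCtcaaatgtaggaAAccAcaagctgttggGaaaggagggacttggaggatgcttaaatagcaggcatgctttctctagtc
Lyz1, chr10:117292869-117292968 (minus strand): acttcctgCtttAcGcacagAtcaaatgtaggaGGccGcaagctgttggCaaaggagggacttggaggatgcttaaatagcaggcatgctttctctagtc

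Of the 50-base stretches in the Lyz2 transcript, 15.4% also stand in Lyz1, and 12.8% of those in Fcgr3 also stand in Fcgr2b. Reads from such stretches could be assigned to either gene. For the other 8 genes the share was at most 0.27%.

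Set against transcript length, the levels spanned a wide range. In normalized value per kilobase (mean ± SD, n = 8 libraries), Lyz2 was highest at 1318.5 ± 394, followed by C1qa at 397 ± 87.9, C1qb at 355 ± 85.9 and C1qc at 226 ± 67.8. Fcgr3 at 85.0 ± 22.7 and Cd68 at 81.3 ± 16.2 stood in the middle. Csf1r at 35.2 ± 11.0, Mrc1 at 28.4 ± 9.50, Cd163 at 14.4 ± 6.05 and Cx3cr1 at 8.46 ± 1.88 were lowest. In this order the neighbours C1qa and C1qb, Fcgr3 and Cd68, Csf1r and Mrc1, and Cd163 and Cx3cr1 differed by less than the larger SD of the pair. Lengths come from the GENCODE vM21 principal transcripts, since the annotation behind the deposited values is not given in the sources used here.

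Beyond its macrophage genes, Roseburia replicate 1 stood apart in how its values followed GC content. In that library the 2578 tested genes with the least GC had a median log2 deviation of −0.37 from the mean of the 8 libraries, and the 2577 with the most GC one of 0.62. The other 7 libraries lay between −0.11 and 0.22 at the GC-poor end and between −0.36 and 0.27 at the GC-rich end. Its estimated depth, 10808380 reads, was the second highest of a range from 4597789 to 15346535. Another 3 libraries were Roseburia replicates 2 and 4 with core replicate 3. They had the 3 highest values of the bile acid transporter Slc10a2 (510 to 949) and the 3 lowest of Hoxb13 (2.16 to 25.3), a gene of the distal colon. Roseburia replicate 3 came next in Slc10a2, at 414, but had Hoxb13 at 394. Apoe, the knocked-out gene, was read at 11.1 to 27.1 in all libraries, which checks no group label.

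The receptors for growth and position come first. Csf1r encodes the receptor for CSF1 and interleukin 34, on which macrophage survival depends. In core replicates 1 to 3 its normalized values were 173, 229 and 133, and in Roseburia replicates 1 to 5 they were 67.4, 178, 181, 143 and 219.85. The groups overlapped, with the lowest value in Roseburia replicate 1 and the highest in core replicate 2. Its log2 difference was −0.24 (SE 0.35, 95% interval −1.01 to 0.53, limma adjusted p = 0.786), and 0.035 without that replicate. The ligands did not pass either. Csf1 averaged 71.3 ± 18.8 (SD, n = 3) and 69.7 ± 8.39 (SD, n = 5), and Il34, far lower in both groups, 20.4 ± 11.3 and 29.8 ± 12.8.

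Cx3cr1, the receptor by which gut macrophages sense the membrane-bound chemokine CX3CL1, was the one gene of the set that did not reach its lowest value in Roseburia replicate 1. Its values were 31.9, 52.0 and 30.1 in core and 31.9, 35.0, 34.3, 38.9 and 50 in Roseburia libraries. The groups covered nearly the same span (log2 difference 0.025, SE 0.26, 95% interval −0.55 to 0.60, limma adjusted p = 0.9747). This gene was also the thinnest, with 20 to 75 estimated reads per library. Its ligand Cx3cl1 had values of 117, 181 and 150 in core and 498, 149, 283, 168 and 233 in Roseburia libraries. The highest of these, 498, was in replicate 1, the library with the least of most macrophage genes. The ligand's log2 difference was 0.71 (limma adjusted p = 0.588), or 0.45 without that library.

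Among the scavenger receptors and lysosomal proteins, Cd68, a glycoprotein of the macrophage lysosome, varied little. It stood at 98.4, 118 and 82.7 in core and at 65.4, 124, 115, 89.7 and 107 in Roseburia libraries. Means of 99.7 and 100.2 left a log2 difference of −0.012 (SE 0.24, 95% interval −0.53 to 0.51, limma adjusted p = 0.986). As a fold, this interval runs from 0.691 to 1.42.

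Mrc1 encodes the mannose receptor CD206, carried by resident macrophages of the deeper wall and by some endothelium. Its values were 217, 171 and 148 in core and 50.7, 156, 124, 202 and 149.55 in Roseburia libraries. It had the most negative fitted difference of the set, −0.50 (SE 0.38, 95% interval −1.34 to 0.33, limma adjusted p = 0.639). Core replicate 1 was highest and Roseburia replicate 1 lowest, at 30.4% of the mean of the other 7 libraries. Without the latter the difference was −0.18. Limma's library weights set Roseburia replicate 3 at 7.98, against 0.323 to 0.832 in the rest of its group and 0.629 to 1.78 in core. They gave Mrc1 an unadjusted p of 0.0379 (adjusted 0.148) for a lower level, where 13.9% of all genes had one below 0.05 in that direction. The fit without the 3 libraries of low Hoxb13 gave 0.0484 (limma adjusted p = 0.326), where 5.46% of all genes had one. The latter fit set core replicates 1 and 2 against Roseburia replicates 1, 3 and 5, with Roseburia replicate 1 kept. In it Mrc1, Cd163 and Fcgr3 had groups apart, all lower, as did 17.5% of all genes. The median of the 10 differences was then −0.51. The 250 bases upstream of Mrc1, printed above, hold GAGGAA 3 times.

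Cd163, the receptor that clears haemoglobin bound to haptoglobin, varied most. Its values were 90.2, 69.65 and 40.4 in core and 16.4, 94.9, 67.4, 78.7 and 48.05 in Roseburia libraries, a 5.78-fold range, or 2.35-fold without the value of 16.4. The group means, 66.8 ± 25.0 (SD, n = 3) and 61.1 ± 30.2 (SD, n = 5), differed by less than either SD. The log2 difference was −0.26 (SE 0.51, 95% interval −1.39 to 0.86, limma adjusted p = 0.841). This was the widest interval of the set. The gene had 25 to 148 estimated reads per library.

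The 3 chains of C1q, which opens the classical complement pathway and tags dying cells for uptake, are made largely by macrophages, and their genes lie side by side on chromosome 4. C1qa stood at 411, 527 and 354 in core and at 254, 384, 386, 465 and 525 in Roseburia libraries. For C1qb the values were 387, 516 and 373, then 190.3, 409.8, 363, 400.1 and 452, and for C1qc 244, 394 and 204, then 148, 242, 266, 314 and 363. Each chain was highest in core replicate 2 and lowest in Roseburia replicate 1. Log2 differences were −0.12 (SE 0.23), −0.27 (SE 0.26) and −0.079 (SE 0.30), with limma adjusted p of 0.844, 0.694 and 0.924. Their 95% intervals ran from −0.62 to 0.39, from −0.86 to 0.31 and from −0.73 to 0.58.

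Ratios between the chains varied less than the chains did. The ratio of C1qa to C1qb lay between 0.937 and 1.34, that of C1qc to C1qa between 0.578 and 0.747 and that of C1qc to C1qb between 0.548 and 0.802. On the log2 scale the SD of these ratios over the 8 libraries was 0.17, 0.14 and 0.21, while C1qa, C1qb and C1qc themselves varied with SDs of 0.34, 0.43 and 0.46. The ratio of Lyz2 to Csf1r, genes on different chromosomes, was as steady, with an SD of 0.16 where the genes had 0.59 and 0.56. The highest C1qa to C1qb ratio, 1.34, was that of Roseburia replicate 1. In the same library C1qc to C1qb was 0.779, against a core mean of 0.647. GC content is 59.5% for C1qa, 57.4% for C1qb and 57.5% for C1qc, and its part in these ratios was not tested.

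Fcgr3 encodes a low-affinity IgG receptor of macrophages, natural killer cells and neutrophils. Its values were 140.2, 144 and 124 in core, close together, and 46.8, 126, 105, 123 and 106 in Roseburia libraries. Only replicate 2 of the latter, at 126, reached into the core range. Its log2 difference was −0.50 (SE 0.30, 95% interval −1.165 to 0.17, limma adjusted p = 0.606), the smallest p of the 10 genes. Without Roseburia replicate 1 it was −0.24 (limma adjusted p = 0.729). Leaving out core replicate 3 or Roseburia replicate 2 set the groups apart, with Fcgr3 lower and limma adjusted p of 0.729 and 0.380. So it did for 7.07% and 6.31% of all genes. Of 7 neutrophil markers read, S100a8, S100a9, Retnlg, Mpo and Camp were at most 5.90 in any library, while Csf3r ran from 7.90 to 18.6 and Cxcr2 from 43.8 to 75.9. Their part in the Fcgr3 values was not tested. The partner chain Fcer1g averaged 95.1 ± 13.7 (SD, n = 3) and 83.1 ± 17.5 (SD, n = 5), and Fcgr2b, the inhibitory receptor that shares sequence with Fcgr3, had a log2 difference of −0.23, or −0.0074 without Roseburia replicate 1.

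Lyz2, an enzyme that cleaves bacterial cell walls, was the most abundant gene of the set. It stood at 1798, 2126 and 1649 in core and at 636, 2198, 1763, 1495 and 2217 in Roseburia libraries. Apart from 636, every value lay within 1495 to 2217. The log2 difference was −0.28 (SE 0.35, 95% interval −1.06 to 0.51, limma adjusted p = 0.757), and 0.036 without Roseburia replicate 1.

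Lyz1, like Lyz2, was lowest in Roseburia replicate 1 and highest in Roseburia replicate 5. Its values were 118, 165 and 130.1 in core and 53.4, 225, 189, 149 and 254 in Roseburia libraries (log2 difference 0.17, SE 0.43, limma adjusted p = 0.881). Without Roseburia replicate 1 the difference was 0.55 (SE 0.21, limma adjusted p = 0.662). As a share of Lyz2 it made 6.57%, 7.74% and 7.89% in core, against 8.40%, 10.2%, 10.7%, 9.93% and 11.4% in Roseburia libraries. These groups did not overlap, with means of 7.40% ± 0.721 (SD, n = 3) and 10.1% ± 1.13 (SD, n = 5). A two-sided exact permutation test of the log2 ratio gave p = 0.0179, the smallest that 56 arrangements of 3 and 5 labels can give, and 0.214 after Benjamini-Hochberg adjustment over the 12 ratios computed, which were chosen after the values were seen. GC content is 47.7% for Lyz1 and 48.3% for Lyz2, and its part in this ratio was not tested. The Paneth cell gene Defa24 was at 0 in all libraries but Roseburia replicate 3, at 6.36, and Mmp7 ran from 1.06 to 79.1. Shared reads between the genes were not separated here.

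**Figure D2:**
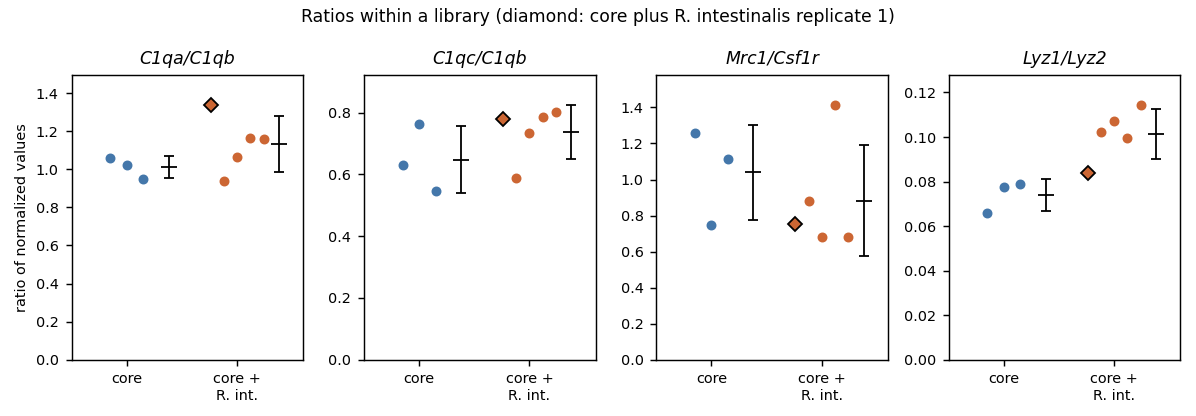
Ratios of 2 normalized values within a library, as points for 3 core and 5 core plus R. intestinalis libraries, with group means as lines and SDs as bars (diamond: replicate 1 of the latter). The groups overlap for C1qa to C1qb, C1qc to C1qb and Mrc1 to Csf1r, and they do not for Lyz1 to Lyz2, where the core libraries reach 0.0789 and the others start at 0.0840.

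How the 10 genes varied from library to library was shared to a large degree. Averaged over the set, the log2 deviation of Roseburia replicate 1 was −1.02, and the other 7 libraries lay between −0.15 and 0.41. Core replicate 2 was the highest library for 6 of the 10 genes. In Roseburia replicate 1 the genes stood between 23.5% (Cd163) and 82.1% (Cx3cr1) of their mean in the other 7 libraries. The 3 C1q chains stood at 45.9% to 58.4%, Lyz2 at 33.6%, Mrc1 at 30.4%, Csf1r at 37.6% and Fcgr3 at 37.7%, and Cd68 at 62.3%. The GC content is 52.9% for Cd68 and 54.5% for Csf1r. In that library genes as rich in GC as the C1q chains were mostly raised, and genes as poor in GC as Mrc1 mostly lowered, as the plot against GC content shows. After a correction for GC content, chosen after seeing the data, 9 of the 10 genes were below 0 (50.2% of all genes). The log2 differences were −0.46 for C1qa, −0.55 for C1qb and −0.36 for C1qc, each more negative than before, and −0.35 for Mrc1. None passed (limma adjusted p from 0.605 to 0.979 over the 10 genes). With the same correction and without that library, they were −0.17, −0.22, −0.0485 and −0.099, and 6 of the 10 genes were below 0 (49.6% of all genes).

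**Figure D3:**
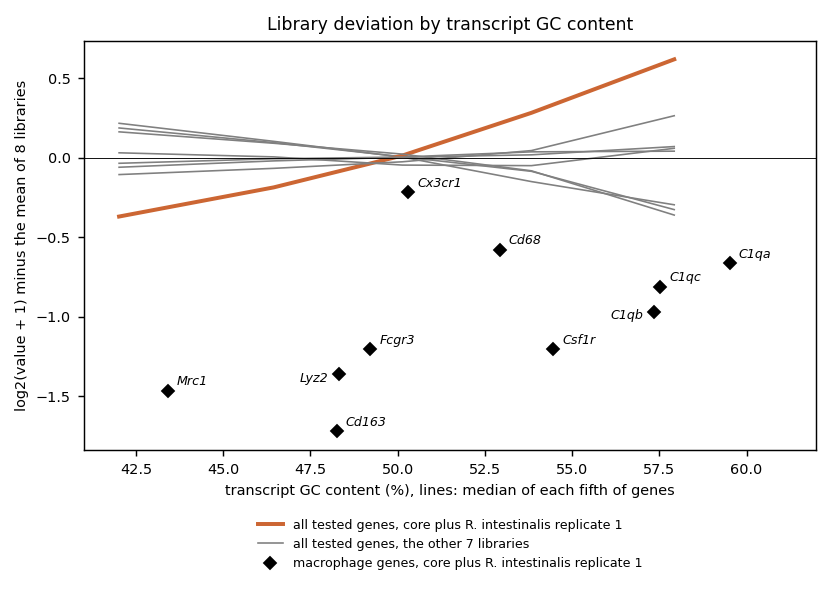
Median log2 deviation of all tested genes in 5 bins of transcript GC content, for core plus R. intestinalis replicate 1 (orange) and the other 7 libraries (grey), with the 10 macrophage genes in that replicate as diamonds. The orange line climbs from −0.37 to 0.62, and every diamond lies below 0, from −1.72 (Cd163) to −0.22 (Cx3cr1).

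**Figure D4:**
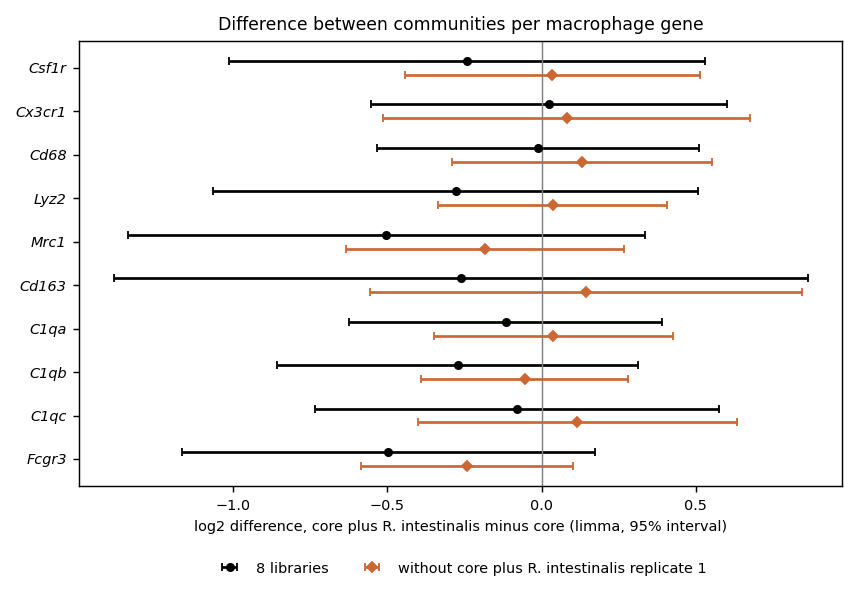
Log2 difference between the communities (points) with its 95% interval (bars) for each macrophage gene, from all 8 libraries (black) and without core plus R. intestinalis replicate 1 (orange). Every interval spans 0, and without that library the differences run from −0.24 (Fcgr3) to 0.14 (Cd163).

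Genes outside the set whose course over the 8 libraries was most like its average were ranked by the root mean square distance between log2 deviations, among 9602 genes with a mean of at least 50. The nearest was F2r, the thrombin receptor, at 0.074, followed by Serpina3n (0.097), Mre11a (0.12), Fcgr2b (0.12), Fzd4 (0.13), Gm2a (0.13), Gbp4 (0.14), Glp2r (0.14), Lilrb4 (0.15) and Mpeg1 (0.15). All 10 had their lowest value in Roseburia replicate 1, which follows from ranking by likeness to an average of −1.02 in that library. Fcgr2b, Lilrb4, an inhibitory receptor of myeloid cells, and Mpeg1, a pore-forming protein of macrophages, are leukocyte genes, and F2r, Fzd4 and Glp2r are not particular to macrophages. By the same measure C1qb was the member nearest to the average of the set (0.082) and Cd163 the farthest (0.44), with 3774 of the 9602 genes nearer than Cd163. The average contains the members, so their distances are not measured quite as those of other genes.

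A wider list of macrophage genes was also mostly below 0, and it depended less on Roseburia replicate 1. Of its 20 genes 17 were tested, 12 of them below 0 and 0 past the threshold, with a median log2 difference of −0.32. In Roseburia replicate 1, 13 of the 17 had their lowest value. Without that library 11 of the 17 were still below 0, with a median of −0.12, where the 10 genes had 3 below 0. Adgre1, which encodes the F4/80 antigen and is listed as Emr1, had values of 63.5, 80.9 and 47.1 in core and 20.0, 65.8, 48.0, 59.0 and 48.6 in Roseburia libraries. The integrin gene Itgam averaged 56.2 ± 6.99 (SD, n = 3) and 50.9 ± 9.87 (SD, n = 5).

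Ms4a7, a membrane gene of resident macrophages, was below the core range in every core plus R. intestinalis library (1 of the 17 genes, against 3.31% of all genes tested). Its values were 71.4, 62.8 and 73.5 against 34.0, 61.46, 53.9, 59.0 and 44.7 (log2 difference −0.47, limma adjusted p = 0.588). Lyve1, a receptor for hyaluronan on perivascular macrophages and lymphatic endothelium, averaged 256 ± 69.2 and 163 ± 47.4 (log2 difference −0.66, unadjusted p = 0.0322, limma adjusted p = 0.588). Mertk went the other way. This receptor for dying cells stood at 176, 154 and 174 in core and at 337, 259.9, 256, 233 and 201 in Roseburia libraries. The groups did not overlap (1 of the 17 genes in this direction, against 2.53% of all genes tested). Roseburia replicate 1 was now the highest (log2 difference 0.59, SE 0.18, limma adjusted p = 0.588, and 0.49 without that library). The authors' deposited table gave Mertk a posterior probability of 0.76, under the 0.95 of a call.

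**Figure D5:**
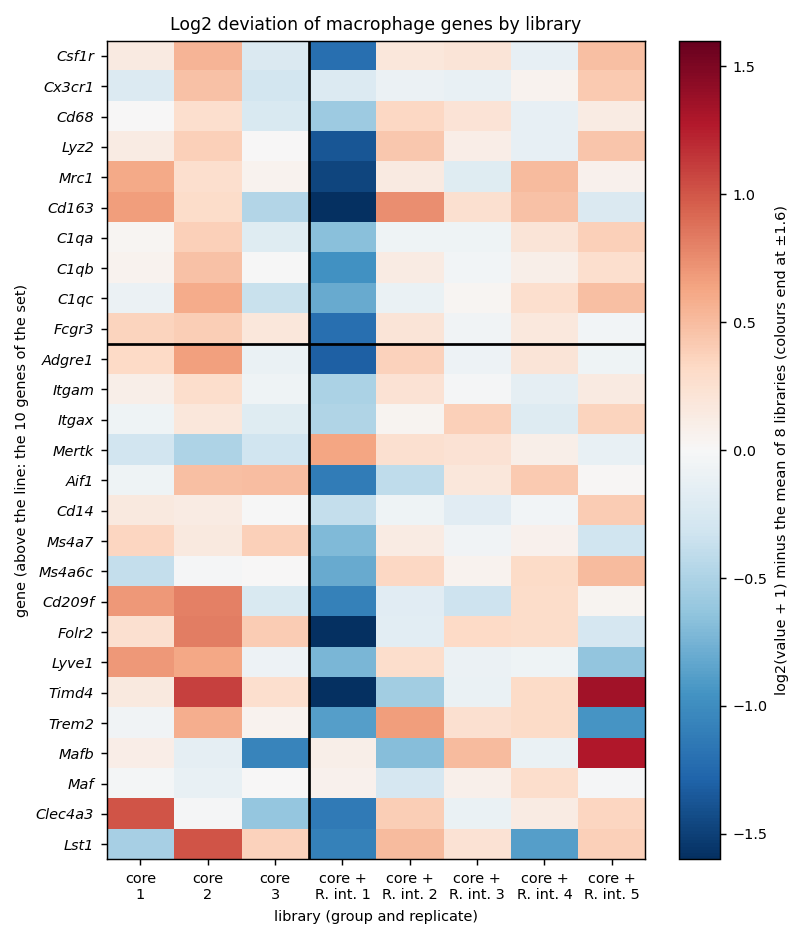
Log2(value + 1) minus the gene's mean over 8 libraries (colour) for the 10 macrophage genes (above the line) and 17 further macrophage genes (below), with libraries in columns. The column of core plus R. intestinalis replicate 1 is blue for nearly every gene, and Mertk is an exception there, with its highest value of 337.

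Genes tied to how macrophages are activated were compared next, and 0 of them passed the threshold over all genes tested. Of 8 tested genes of alternative activation 4 were below 0, with a median log2 difference of 0.020. Within that list the C-type lectin Clec10a and the secreted protein Retnla were below the core range in every core plus R. intestinalis library (2 of 8 genes, against 3.31% of all genes tested). Stat6, the transcription factor downstream of interleukin 4, was above it in every one (1 of 8 genes, against 2.53%), with means of 639 ± 50.1 (SD, n = 3) and 749 ± 77.9 (SD, n = 5) and a log2 difference of 0.23 (limma adjusted p = 0.597). Clec10a had values of 18.5, 26.8 and 13.8 in core and 4.22, 10.1, 7.74, 12.7 and 10.5 in Roseburia libraries (log2 difference −1.07, SE 0.40, limma adjusted p = 0.588). For Retnla the values were 90.5, 62.8 and 58.55, then 17.4, 57.1, 39.7, 51.9 and 21.7 (log2 difference −1.01, SE 0.40, limma adjusted p = 0.588). Without Roseburia replicate 1 the differences were −0.85 and −0.77. Neither gene was called in the authors' deposited table, at posterior probabilities of 0.76 and 0.36.

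Inflammatory genes were scarce. Of 12 listed, 4 reached the mean of 10 needed for the test, and all 4 had differences below 0, with 0 past the threshold. Tnf averaged 15.7 ± 4.28 (SD, n = 3) and 9.13 ± 1.77 (SD, n = 5), with limma adjusted p = 0.588. It was below the core range in every core plus R. intestinalis library (1 of the 4 genes, against 3.31% of all genes tested). Il1b, Il6 and Nos2 stayed at or below 17.25 in every library. Ptgs2, which makes prostaglandins, averaged 104 ± 26.0 and 66.9 ± 14.1 (unadjusted p = 0.0282, limma adjusted p = 0.588). Cxcl10 reached 52.2 in core replicate 2 and at most 25.1 elsewhere. For the monocyte list, 4 of 7 tested genes were below 0 with a median of −0.063, or 5 of 7 with a median of −0.16 without Roseburia replicate 1. Ly6c1, which endothelium also makes, averaged 556 ± 104 and 393 ± 78.6 (unadjusted p = 0.0261, limma adjusted p = 0.588). The monocyte surface gene Ly6c2 averaged 345 ± 63.9 and 233 ± 117 (limma adjusted p = 0.591), and the chemokine receptor Ccr2 53.2 ± 6.16 and 39.0 ± 16.7 (limma adjusted p = 0.610).

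In the rest of the complement pathway 15 of 16 genes were tested, 12 were below 0 and 0 passed, with a median log2 difference of −0.21, or −0.037 without Roseburia replicate 1, where 10 of the 15 were lowest. At an unadjusted p below 0.05, 3 of the 15 were lower (3.69% of all genes), namely Cd59a, Serping1 and Cfd. Serping1, the C1 inhibitor, averaged 1728 ± 199 and 1243 ± 328, and Cfd, complement factor D, which fat cells make in bulk, 826 ± 360.2 and 244 ± 164. The summed level of 8 adipocyte markers, Cfd among them, was 1777 to 4531 in core and 483 to 2605 in Roseburia libraries, and its part in these values was not tested. C1ra and C1s, the proteases that join C1q in the C1 complex, averaged 310.1 ± 60.7 and 264.9 ± 57.4, and 763 ± 76.8 and 610.3 ± 207, in core and Roseburia libraries. Cd59a, which blocks the membrane attack complex, had the posterior probability of a call in the authors' deposited table, 0.99, with a raw fold of 0.61. Its values averaged 594 ± 65.9 (SD, n = 3) and 365 ± 83.6 (SD, n = 5), and limma's adjusted p was 0.588.

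Of the CSF1 receptor pathway 10 of 12 genes were tested, with Spi1 not analysed here. Here 3 were below 0 and 7 above, with a median log2 difference of 0.14, or 0.12 without Roseburia replicate 1. Cbl and Grb2, among the genes of the list with the smallest p, had differences of 0.46 and 0.30 (limma adjusted p = 0.606 and 0.633). The summed level of this list was highest in Roseburia replicate 1, at 1198, against 768 to 1029 in core. Tyrobp, the adaptor of several myeloid receptors, averaged 89.3 ± 22.3 (SD, n = 3) and 78.9 ± 25.5 (SD, n = 5). Of the Fc receptor list 4 of 5 tested genes were below 0, and 0 passed in either list.

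Markers of some other cells in the wall were low in Roseburia replicate 1 as well. The summed level of 8 pan-leukocyte genes was 1256 to 1686 in core and 758 to 2273 in Roseburia libraries, with the lowest sum, 758, in that replicate. For Ptprc, which encodes CD45, the values were 125, 187 and 131, then 68.1, 226, 213, 136 and 299. Csf1r relative to Ptprc was 1.38, 1.22 and 1.02 in core and 0.9905, 0.786, 0.853, 1.05 and 0.735 in Roseburia libraries, groups that overlapped at core replicate 3 and Roseburia replicate 4 (two-sided exact permutation p = 0.0536, and 0.321 adjusted over the 12 ratios). The B cell gene Cd79a reached 473 in Roseburia replicate 5, the library with the highest Ptprc. Fibroblast markers were lower at an unadjusted p below 0.05 for 5 of 10 genes and smooth muscle markers for 5 of 9, against 3.69% of all genes, with 0 past the adjusted threshold in either list. The smooth muscle sum of Roseburia replicate 1, 179310, was the highest of that group, in which it ran from 101470. Fibroblast sums were 9551 to 11033 in core and 5589 to 8716 in Roseburia libraries, again lowest in replicate 1. In that replicate 5 of the 10 fibroblast genes had their lowest value, while Col1a1 (594) and Pdgfrb (223) had their highest of the 8 libraries. Its goblet and Paneth marker sum, carried by Muc2, was the highest of all. The T cell, dendritic cell and B and plasma cell sums were lowest in Roseburia replicate 1 too. The neutrophil sum, 98.5, and the mast cell and eosinophil sum, 1034 and carried by Kit, were highest in it. The sum of 9 epithelial genes, carried by Car1, ranked 5 from the lowest of 8. Of these 9 genes 0 were lowest in Roseburia replicate 1, and Epcam, Cdh1, Vil1 and Cdx2 were highest there. The part of these other cells, of GC content and of depth in the low macrophage values of that library was not tested.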

How the data were processed

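Values per gene are the authors' normalized expression signal in the deposited table, 1 column per library. They look like estimated reads divided by 1 factor per library, and they are not per length. Bowtie2, RSEM 1.2.23 and mm9 are listed, with no role or order, per the submitters' processing notes. What genes were filtered, and which annotation was used, is not stated there. Per the file headers, the authors' comparison adds their score for a difference (a posterior probability) and 2 linear fold changes, raw and posterior, with core as the denominator. Core sample names run from 3 to 5, and any other core library is not analysed here.

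Low values cluster on 1 step per library, taken as 1 read. Between 79.9% and 84.5% of values under 30 lay on it (tolerance 0.05), so whole reads were not assumed, and depth was estimated as the sum over the step.

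The 10 genes, the other lists, the tests and most alternatives were chosen with earlier results of these data known. Log2(value + 1), which shrinks the changes of low genes, was fitted with limma 3.58.1 in R 4.3.3 (trend, 13020 genes with a mean of at least 10), core plus R. intestinalis minus core, with Benjamini-Hochberg adjusted p below 0.05 as threshold. P-values measure the spread between these libraries. Length and GC content came from GENCODE vM21 (98.7% of genes matched), promoters from RefSeq (GRCm38.p6). Named were the 10 genes, up to 3 genes per other list with the smallest p, a fixed set of partners, and the 10 most alike. S100a8, S100a9, Retnlg, Mpo, Camp, Defa24, Il1b, Il6, Nos2, Cd79a, Muc2, Cdh1, Cdx2, Col1a1 and Pdgfrb were named after their values were seen. Alternatives were other pseudocounts (0.5 and 5), filters (none and 50), trimmed mean and quantile scaling, libraries left out, blocks, library weights, no trend, other cutoffs on the score and, chosen after seeing the data, a GC correction (lowess, span 0.3), the same without core plus R. intestinalis replicate 1, and a block on the number in the sample name.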

Additional observations from a re-analysis of the deposited data

Results flagged for a closer look

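Fcgr3 in Roseburia replicate 1 was 46.8, with the other 4 libraries of that group between 105 and 126. The gap to the nearest was 0.739 of the whole range, above Dixon's 95% critical value, which marks a value as far from the others in a group of 5. Averaged over the 10 macrophage genes, the log2 deviation of the same library was −1.02, with a gap of 0.838 of the range. Complement C3, the central protein of the pathway, was 1534 in Roseburia replicate 5, where the next highest of that group was 697 (gap 0.725 of the range), core replicate 2 had 978, and the group means were 728 in core and 758. These were 3 of 28 series of 5 values examined, and chance marks about 1 in 20.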

How the results depend on the processing

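No macrophage gene passed the threshold under any of the 21 alternatives to the fit (20 for Cx3cr1, which a mean of at least 50 leaves untested), and the authors' scores called 0 of the 10 at cutoffs of 0.90 and 0.99 too. The direction of most genes was not stable. Leaving out each library in turn gave a median difference of −0.36 to 0.037, with Csf1r at −0.43 to 0.035, Cd68 at −0.14 to 0.13, Cx3cr1 at −0.12 to 0.27, Cd163 at −0.58 to 0.14, C1qa at −0.25 to 0.039, C1qc at −0.28 to 0.19 and Lyz2 at −0.41 to 0.036. Mrc1 (−0.68 to −0.18), C1qb (−0.37 to −0.055) and Fcgr3 (−0.59 to −0.24) stayed below 0 there and in every other alternative run. C1qa, C1qc and Cd68 also turned without core replicate 2, and Cd68 without Roseburia replicate 4 (0.019). Cx3cr1 turned without core replicate 1 or 3 or Roseburia replicate 5. The same step gave 0 to 1 macrophage genes with groups apart, and 0 to 1 genes called over the whole table, the 1 without core replicate 1. The fit without the 3 libraries of low Hoxb13 kept Roseburia replicate 1. In that fit 3 of the 10 were apart, 1 had an unadjusted p below 0.05, and all 10 were below 0 with a median of −0.51. Cd163 was then −1.05 and Cx3cr1 −0.10. With library weights, which put most of the Roseburia weight on replicate 3 (7.98, the rest at most 0.832), 455 genes passed over the whole table. Of the 10, 1 had an unadjusted p below 0.05 there, and Csf1r (0.054), Cd68 (0.19) and C1qc (0.087) were above 0. Quantile normalization gave Cx3cr1 −0.036. GC correction without Roseburia replicate 1 gave Cd68 0.097, Cd163 0.18 and Lyz2 0.073. An unadjusted p below 0.05 was found for 1058 genes in all, but for 270 without core replicate 1, 701 without Roseburia replicate 3, 1908 without Roseburia replicate 2, 1982 without the 3 libraries and 3829 with weights. The cause of these shifts was not tested.

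Libraries with the same replicate number had correlations of −0.53 to −0.070 in their deviations. These cannot decide whether the numbers mark a pairing, since the deviations also hold library differences such as those in Hoxb13 and GC content. With the replicate block of the titles the median was −0.41, all 10 genes were below 0, Mrc1 was −0.82 and Cx3cr1 −0.13, and 395 genes over the whole table had an unadjusted p below 0.05 in place of 1058. With the replicate block on the number in the sample name the median was 0.019, Csf1r 0.037, Cd68 0.066, Cd163 0.00093, C1qa 0.10 and C1qc 0.21. No core library correlated best with its own number. Estimated reads were fewest for Cx3cr1 and Cd163, at as few as 20 and 25 in a library.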
